A study of Homo sapiens with 4 samples.

Results

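A processed pseudogene is a copy of a spliced mRNA that was written back into the genome, without introns and without the promoter of its parent gene. Ribosomal protein genes, whose mRNAs are short, abundant and steadily translated, have left more such copies in the human genome than most other gene families. RNA assigned to these copies was examined in nuclear and cytoplasmic fractions of HEK293T, a line derived from human embryonic kidney that expresses the SV40 large T antigen. The deposited table listed 966 processed pseudogenes named after a large subunit (RPL) or small subunit (RPS) protein gene. Of the 51740 genes in the table, the 170 of these pseudogenes with a mean normalized count of at least 1.7 are described here. The members were thus chosen by their mean over all libraries, which is given only as a description.

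All 4 libraries came from wildtype HEK293T cells that had been crosslinked with formaldehyde. Nuclear RNA and cytoplasmic RNA were each sequenced in 2 independent biological replicates, after ribosomal RNA depletion, from 400 ng of RNA per library and with paired reads of 100 nt. Equal RNA mass went into each library, and counts were divided by size factors. A value is thus relative to the other genes of its library, and amounts in a cell were not measured. The libraries pool many cells, and less RNA in every cell cannot be told apart from RNA in fewer cells.

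The table gives 1 mean for each gene, without columns for the single libraries. The whole counts behind that mean were recovered from its printed digits wherever only 1 combination of 4 counts fitted, which was the case for 160 of the 170 members. The libraries are called nuclear A and B and cytoplasmic A and B, since the table does not say which replicate number each one carries. The size factors were 1.34 and 1.19 for nuclear A and B and 0.853 and 0.755 for cytoplasmic A and B. Means above 100 were almost never recovered, so the comparison between fractions covers low counts and leaves out most of the highest members. As a check of the fractions, the 3711 lncRNAs with recovered counts had a median log2 difference, cytoplasmic minus nuclear, of -0.64, against -0.19 for 2408 protein-coding genes.

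The members differ from their parent mRNAs to very different degrees, as the stretches below show. Each line gives 30 bases of the coding strand, 5′ to 3′, from the part of the parent's coding sequence where the copy differs most. Capitals mark the bases at which the copy and the parent mRNA differ. The first 4 pairs are copies at or above 98% identity. They lie at chr11:82689559-82689588 (RPS28P7, plus strand), chr12:118246090-118246119 (RPS2P5, plus strand), chr14:98973239-98973268 (RPL3P4, minus strand) and chr1:212051977-212052006 (RPL21P28, minus strand) in hg38.
RPS28P7: atggacaccagccgtgtgcagcctatcaag
RPS28: atggacaccagccgtgtgcagcctatcaag
RPS2P5: gatgacgccggtgcagcgggggggcAcggA
RPS2: gatgacgccggtgcagcgggggggcCcggG
RPL3P4: catcaccgcactgagatcaacaagaagatC
RPL3: catcaccgcactgagatcaacaagaagatT
RPL21P28: atgacAaacacaaagggaaagaggagaggc
RPL21: atgacGaacacaaagggaaagaggagaggc

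The next lines set 2 copies of the same parent beside each other, because their counts lay in opposite fractions. RPL23AP42 (chr3:161429221-161429250, minus strand) and RPL7P9 (chr1:96679579-96679608, minus strand) were higher in both cytoplasmic libraries. RPL23AP20 (chr1:241916404-241916433, plus strand) and RPL7P4 (chr6:30696893-30696922, minus strand) had no count in either. RPS25P9 (chr10:70199203-70199232, minus strand) leaned to the nucleus.
RPL23AP42: CtatgacattgatgtggccaaggtcaacaT
RPL23A: GtatgacattgatgtggccaaggtcaacaC
RPL23AP20: GcaggctgCgaGAaagctCACtAaTaCtAG
RPL23A: AcaggctgTgaAGaagctGTAtGaCaTtGA
RPL7P9: gaagagaagaagaaggaggttcctgctgtT
RPL7: gaagagaagaagaaggaggttcctgctgtG
RPL7P4: ttcaaattAtcCtctccacAaggtAgaGtA
RPL7: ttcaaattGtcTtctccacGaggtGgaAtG
RPS25P9: cCaaAgacCacaagaagaagaaAgaTgcCA
RPS25: cTaaGgacGacaagaagaagaaGgaCgcTG

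All 170 members were found in GENCODE 44 as processed pseudogenes, and 163 of them had a single exon block. Their exonic length ran from 81 to 1311 bases with a median of 585.5. Identity to the mRNA of the parent named in the symbol ran from 61.0% to 100% with a median of 95.8%. A start codon at the parent's position was kept in 128 members, and 38 kept the parental reading frame open. An open frame here also needed an alignment over the parent's whole coding sequence, stop codon included. A copy that ends just short of it, such as RPS2P5 with 99.7% aligned, is thus counted as not open. On the other strand 52 members overlapped another gene, and 5 overlapped one on their own strand. The authors removed stretches shared by several genes from their annotation before counting. The libraries were made with a stranded kit, but whether the counting used strand, and how it treated multi-mapping reads, was not given in the sources used here. Reads from near-identical copies, from the parent and from an overlapping gene on the other strand can therefore not be told apart here with certainty.

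By their symbols, the members came from 58 parent genes, 35 of the large and 23 of the small subunit. RPSA, a small subunit protein also known as the laminin receptor, had 13 members among 48 listed copies. RPL7 of the large subunit had 11 among 52, and RPS4X, the X-linked form of a small subunit protein, had 9 among 18. RPL7P21, RPL7P22 and RPL7P57 are counted with RPL7 by name, but their sequences are closer to its relative RPL7L1, as described below. The share of listed copies that were members varied between parents, with 8 of 73 for RPL23A and 4 of 6 for RPL13A.

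Most members were at a low level, and a few were far above the rest. Their mean normalized count had a lower quartile of 2.92, a median of 6.60 and an upper quartile of 18.1. Only 9 members had a mean over 100. RPS2P5, a copy of the gene for a protein at the mRNA entry channel of the small subunit, had a mean of 5479, which was 61.2% of the summed mean of all 170 members. Its mean equalled 11.4% of that of RPS2. RPL41P1, a copy of the gene for the smallest ribosomal protein, followed with a mean of 552, or 5.88% of RPL41. RPS28P7 had a mean of 187, or 3.39% of RPS28. No other member exceeded 1% of its parent's mean, and the median share was 0.0371%.

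The next 5 in level were RPL13AP5 with a mean of 157, RPL5P34 with 151, RPL4P4 with 149, RPL13P12 with 142 and RPLP0P6 with 110, all copies of large subunit genes. Of these 8 members none had a single combination of counts, so their split between fractions is not given by the main recovery. At the other end, RPL36AP52 had a mean of 1.73 and RPL13P2 and RPSAP4 had 1.71 each. Just outside the threshold were RPS19P1 with 1.69, RPL7P48 with 1.65 and RPL10P4 with 1.62. No step separates the members from the copies just below them.

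Per kilobase of exon, the mean normalized count ran from 1.81 to 6813 with a median of 11.6. The level per kilobase went with how much of a copy's sequence occurs elsewhere. Windows of 100 bases, the read length, were looked up in hg38 and in the transcripts of all other genes. Every window was unique in 78 members, whose median level was 7.04 per kilobase. In 32 members fewer than 75% of the windows were unique, and their median level was 53.8 per kilobase. The 4 members without a unique window were RPS28P7, RPL21P16, RPL35P2 and RPS11P5, and the 81 bases of RPL41P1 are too short to hold one. A unique window is a property of the reference sequence, and how reads were placed was not tested.

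**Figure D1:**
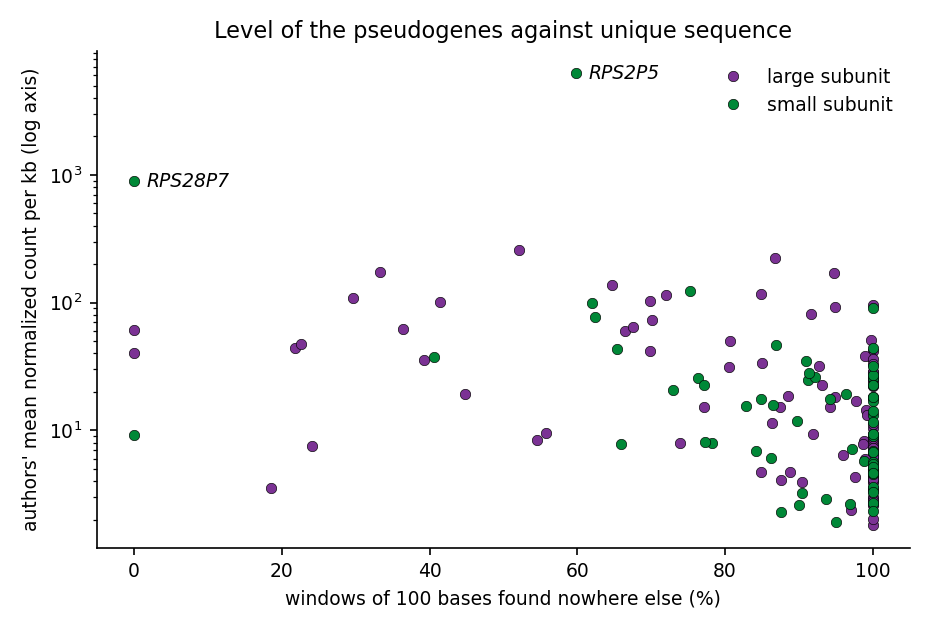
Authors' mean normalized count per kilobase (log axis) of 169 members against the share of 100-base windows found nowhere else in hg38 or in transcripts of other genes, coloured by ribosomal subunit; RPL41P1 has no window and is left out. RPS2P5 lies far above the other members at 59.9% unique windows, and RPS28P7 has none.

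The question of this comparison was in which compartment the RNA assigned to the copies lies. In most members its normalized count was higher in the cytoplasmic than in the nuclear fraction. Both cytoplasmic libraries were above both nuclear libraries in 128 of the 160 recovered members (80.0%), against 32.7% of all 7675 genes with recovered counts. The reverse held for 14 members (8.75%), against 40.7% of all genes. The fractions overlapped in 18. The median log2 difference of the members was 2.28, with quartiles of 1.34 and 2.88, against a median of -0.26 over all genes. With members at 0 in 1 fraction set to their bound, the median was 2.18. A member can pass the threshold on the mean through 1 fraction alone, so these counts and medians describe the members and are no test of them. In 63 members the nuclear counts alone gave a mean of at least 1.7, a subset taken after seeing the data. Both cytoplasmic libraries were higher in 45 of these, against 23.6% of the 5356 genes that met the same condition, and both nuclear libraries in 12, against 55.5%.

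By limma, 19 members were higher in the cytoplasm at an adjusted p of at most 0.01, against 1.82% of all genes. Higher in the nucleus at that threshold were 0 members, against 1.47% of all genes, while 9 had an unadjusted p under 0.05, against 28.1%. At an adjusted p of at most 0.05 the counts were 67 (background 13.9%) and 7 (background 19.2%). All 19 calls were lost when any 1 of the 4 libraries was left out, and so were the 140 cytoplasmic calls over all genes. With genes of several combinations added, as described next, limma called 38 members higher in the cytoplasm (background 7.04%) and 3 in the nucleus (background 9.32%). Those combinations were taken for their agreement within a fraction, which also lowers the spread that the fit tests against. An exact permutation test of 2 against 2 libraries cannot give a two-sided p below 0.333.

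For 3 of the members without a single combination of counts, 1 combination agreed far better between libraries of a fraction than the others, and it was taken after seeing the data. RPL13AP5 then had 32 and 35 counts in nuclear A and B and 273 and 192 in cytoplasmic A and B. RPL7AP6 had 30 and 32 against 178 and 135, and RPS2P32 had 35 and 38 against 114 and 99. Their log2 differences in the limma fit with such genes added were 3.40, 2.95 and 2.18. All 3 had both cytoplasmic libraries above both nuclear ones.

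RPL3P4 copies part of the mRNA of RPL3, which lies near the catalytic centre of the large subunit. Its counts were 5 and 6 in nuclear A and B and 76 and 64 in cytoplasmic A and B. Both cytoplasmic counts were far above both nuclear ones, and the log2 difference was 4.17 ± 0.30 (SE, n = 2 against 2, limma adjusted p = 0.0085).

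RPL21P28 had 8 and 7 counts in the nucleus and 77 and 71 in the cytoplasm. RPL23AP42, copied from a protein at the exit tunnel for the nascent chain, had 13 and 16 counts in the nucleus and 124 and 118 in the cytoplasm. The 2 cytoplasmic libraries of each copy were close to one another, and the log2 differences were 3.85 ± 0.26 and 3.66 ± 0.27 (limma adjusted p = 0.0085 for both). RPS7P1, from the small subunit, had 11 and 16 nuclear and 90 and 81 cytoplasmic counts, a log2 difference of 3.28 ± 0.31.

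RPL41P2, RPL14P1 and RPL12P4 showed the same order with a wider spread in the cytoplasm. RPL41P2 had 8 and 6 nuclear and 69 and 45 cytoplasmic counts. RPL14P1 had 6 and 9 nuclear and 72 and 44 cytoplasmic counts. RPL12P4, a member only through its cytoplasmic counts, had 4 and 4 nuclear and 41 and 22 cytoplasmic counts, and in all 3 the lowest cytoplasmic count was several times the highest nuclear one. Their log2 differences were 3.55, 3.48 and 3.37.

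RPL5P12, with 4 and 5 nuclear and 38 and 25 cytoplasmic counts, and RPL32P18, with 13 and 11 against 67 and 45, were called members whose 100-base windows were all unique. Their log2 differences were 3.27 and 2.79.

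**Figure D2:**
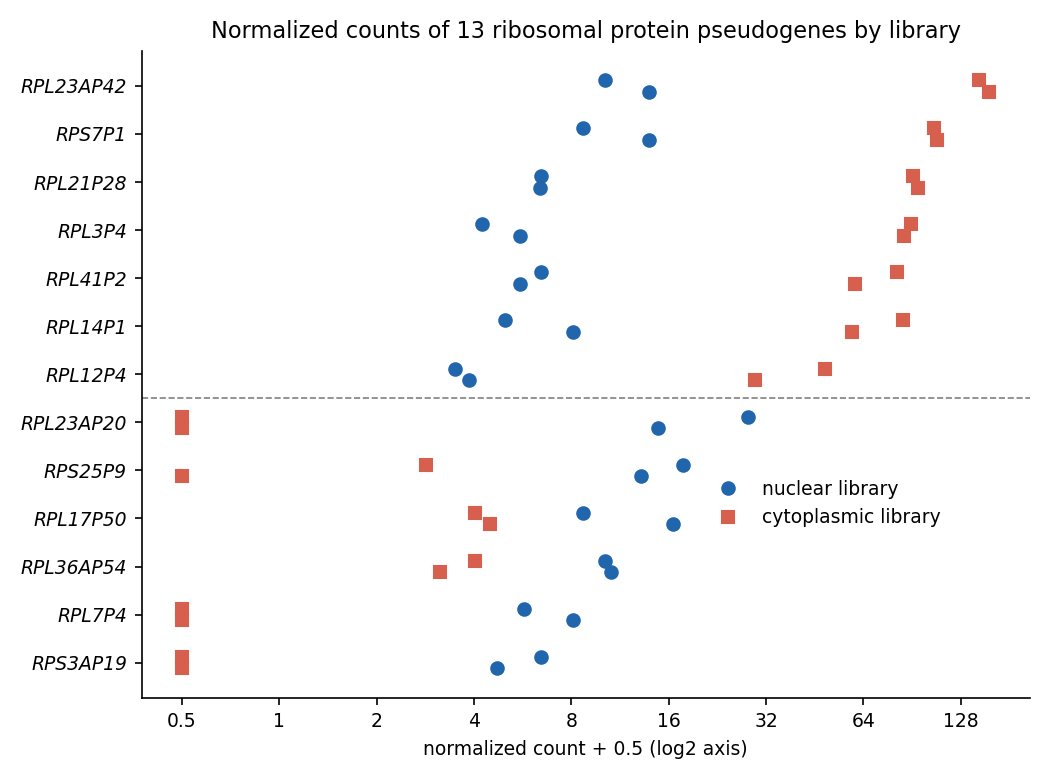
Normalized count plus 0.5 (log2 axis) of 13 members in each library, nuclear as circles and cytoplasmic as squares; the 7 above the dashed line are among the 8 with the largest called cytoplasmic differences, and the 6 below it, chosen after their values were seen, are higher in both nuclear libraries. A marker at 0.5 is a count of 0.

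In all, 8 members had no nuclear and 5 no cytoplasmic count, and 49 had 3 or fewer nuclear counts.

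A minority went the other way. These members were chosen after their values were seen, since none passed an adjusted p of 0.01. All of those named next but RPL17P50 reached the mean of 1.7 only through their nuclear counts, so their values are a description with no test. RPL23AP20 had 37 and 17 counts in the nucleus and none in the cytoplasm. It was at least 11.4-fold higher in the nucleus, taking 3 counts over both cytoplasmic libraries as the floor. RPL23AP42, a copy of the same parent, lay at the other extreme in the plot of counts by library.

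RPL7P4 had 7 and 9 nuclear counts and no cytoplasmic count, at least 3.39-fold higher in the nucleus. RPS3AP19 had 8 and 5 nuclear counts and none in the cytoplasm, at least 2.75-fold higher. RPS4XP9, the lowest RPS4X member, had 3 and 7 nuclear counts and none in the cytoplasm.

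RPS25P9 had 23 and 15 counts in the nucleus and 2 and 0 in the cytoplasm, a nuclear over cytoplasmic ratio of 12.1 (95% exact interval 3.12 to 103, counting error only). RPL36AP54 had 13 and 12 counts against 3 and 2, and RPL17P50 had 11 and 19 against 3 and 3. Their ratio was 3.18 in both, with intervals of 1.19 to 10.6 and 1.30 to 9.34. In each of these copies both nuclear libraries were above both cytoplasmic ones after normalization. The limma adjusted p for RPL17P50 was 0.069.

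**Figure D3:**
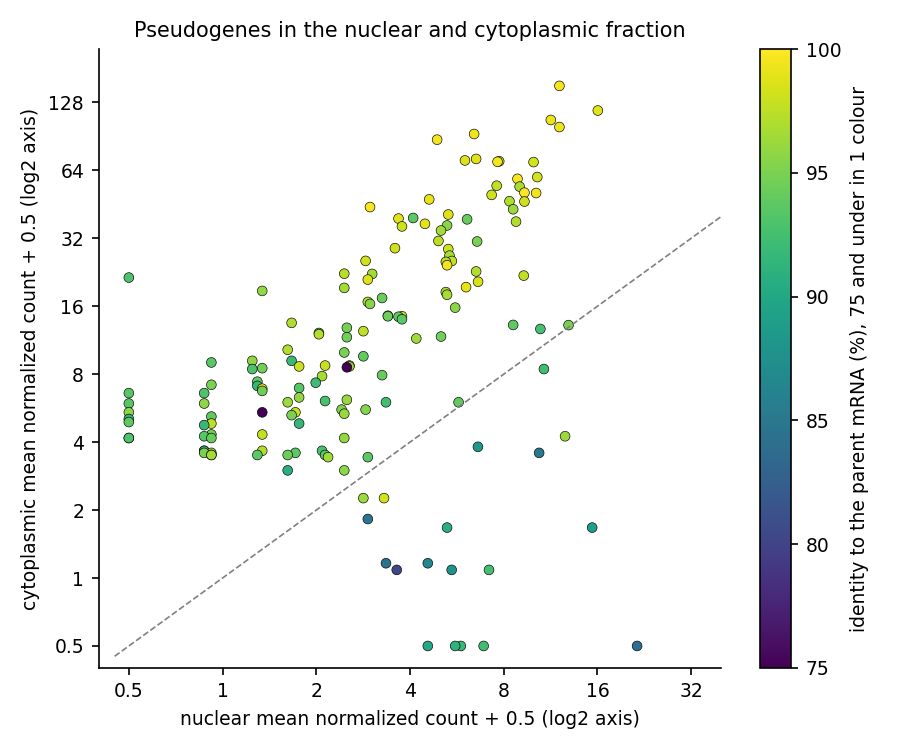
Mean normalized count plus 0.5 in the cytoplasmic against the nuclear fraction (both log2 axes) for the 160 recovered members, coloured by identity to the parent mRNA; the dashed line marks equal values. Most points lie above the line, and the points below it are mostly of the darker colours of lower identity.

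Identity to the parent mRNA was not used by the rule, and the members' split between fractions differed along it. Of 32 recovered members at or above 98% identity, 31 were higher in both cytoplasmic libraries and 0 in both nuclear ones, and the median log2 difference was 2.93. The exception was RPL21P11, with 3 and 4 nuclear and 3 and 0 cytoplasmic counts. From 95 to 98% identity, 52 of 56 were higher in both cytoplasmic libraries and 1, RPL17P50, in both nuclear ones. From 90 to 95%, the counts were 42 and 5 of 59. Below 90%, 3 of 13 were higher in the cytoplasm and 8 in the nucleus, and the median log2 difference was -1.68. Of the 14 members higher in both nuclear libraries, only RPL17P50 would reach the mean of 1.7 on its cytoplasmic counts alone. Of the 128 higher in both cytoplasmic ones, 45 would reach it on their nuclear counts alone. The threshold thus took part in the direction of many members. The splits by identity, frame, unique sequence, position, subunit and family are therefore descriptions with no test. The bins also differ in depth, with a median mean normalized count of 31.6 at or above 98% and of 7.08, 3.66 and 2.76 in the lower bins, and the part of depth in the order was not tested.

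The 3 cytoplasmic members below 90% identity were RPL7P21, RPL7P22 and RPL7P57, all named after RPL7. Aligned after their values were seen to RPL7L1, a protein-coding relative of RPL7 that acts in ribosome assembly, they were 97.8%, 97.3% and 95.8% identical to it over 634, 733 and 739 bases. The other 8 members named after RPL7 were at most 68.2% identical to RPL7L1. RPL7P21 had 2 and 3 nuclear and 7 and 6 cytoplasmic counts. RPL7P22 had 0 and 2 against 5 and 3, and RPL7P57 had 1 and 0 against 2 and 3. Without these 3 copies, 8 of the 10 members below 90% identity were higher in both nuclear libraries, and in the other 2 the fractions overlapped. RPS26P45, at 80.4% identity, had 5 and 3 nuclear and 1 and 0 cytoplasmic counts.

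**Figure D4:**
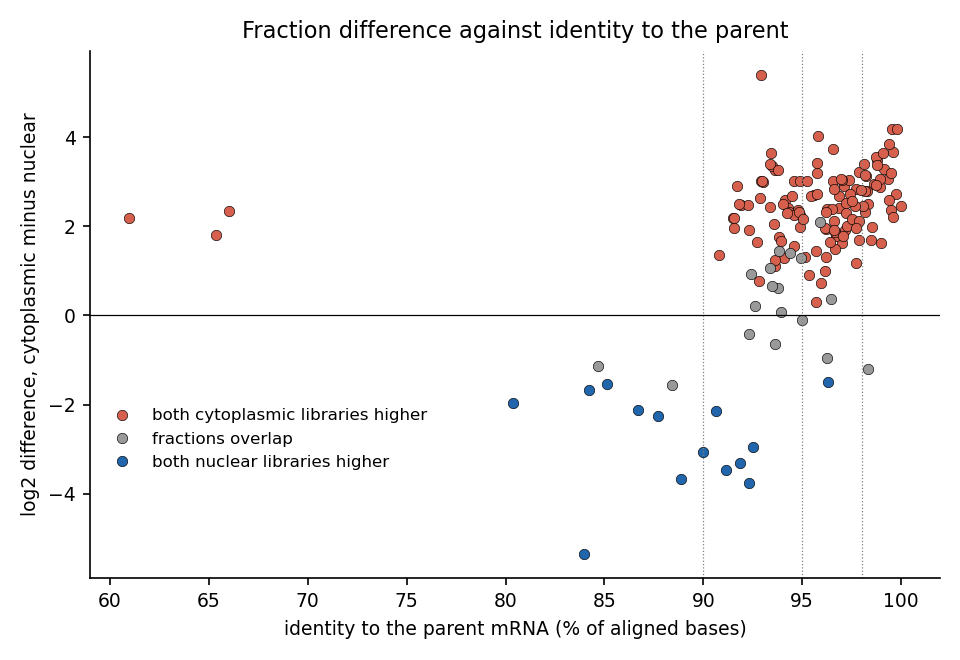
Log2 difference, cytoplasmic minus nuclear, of the 160 recovered members against identity to the parent named in the symbol; dotted lines mark 90, 95 and 98%, and colours show whether the libraries of the fractions overlap. The 3 points at 61.0 to 66.0% are the copies that resemble RPL7L1, and 13 of the 14 members higher in both nuclear libraries lie below 93%.

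The level per kilobase was higher in the bins of higher identity in the cytoplasm, but not in that order in the nucleus. At or above 98% identity the median was 83.9 normalized counts per kilobase in the cytoplasm and 10.8 in the nucleus. Below 90% the medians were 4.27 in the cytoplasm and 9.19 in the nucleus. From 95 to 98% the medians were 15.9 in the cytoplasm and 3.87 in the nucleus, and from 90 to 95% they were 9.29 and 2.49. Below 90%, 8 of 13 members were higher in both nuclear libraries. None of these would reach the mean of 1.7 on its cytoplasmic counts alone, so the threshold took part in these levels. The members below 90% were also shorter, with a median of 421 bases against 541 to 588 in the other bins. The reading frame followed identity, with a median of 98.5% among members with an open frame and 94.9% among the others. Of 32 recovered members with an open frame, 31 were higher in both cytoplasmic libraries and 0 in both nuclear ones, against 97 and 14 of the other 128. These others include copies that only end short of the parent's coding sequence.

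The split between fractions also differed with the share of unique sequence. Among 77 recovered members with unique windows throughout, 53 were higher in both cytoplasmic libraries and 10 in both nuclear ones, with a median log2 difference of 2.04. From 75 to 100% unique windows, the counts were 49 and 3 of 56, with a median of 2.18. With fewer than 75%, 26 of 27 were higher in both cytoplasmic libraries and the median was 2.80. The one exception, RPS14P5, had 11 and 2 nuclear and 1 and 0 cytoplasmic counts.

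Position relative to other genes was examined too. In 10 members the nearest protein-coding or lncRNA gene on the same strand ended less than 5 kb before the copy began. None of these overlapped a gene on its own strand. Of these, 5 were higher in both cytoplasmic and 4 in both nuclear libraries, against 122 and 8 of 145 members lying farther from such a gene. The 4 were RPL17P50, 622 bases beyond P4HA1, RPL36AP54, 2189 bases beyond HPRT1, RPL7P4, 2272 bases beyond MDC1, and RPS25P9, 3596 bases beyond PPA1. RPL26P6, 883 bases beyond MSS51, had 13 and 18 nuclear and 16 and 5 cytoplasmic counts, and its fractions overlapped. The 5 members overlapping a gene on their own strand had 2 higher in the nucleus and 1 in the cytoplasm. Reads running on from the gene before a copy were not tested, since the table holds no coverage between genes. The paper describes filtering genes with such reads from its analyses, by the coverage just before each gene. Which genes, if any, this removed for these fractions is not stated in its text.

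Both subunits showed the same order. Of 99 recovered members from the large subunit, 81 were higher in both cytoplasmic libraries and 8 in both nuclear ones, with a median log2 difference of 2.42. Of 61 from the small subunit, the counts were 47 and 6, with a median of 1.99. Within families the copies were not all on the same side, which is a description with no test. Among the 13 copies of RPSA, 10 were higher in both cytoplasmic libraries and 1 in both nuclear ones, and log2 differences ran from -3.30 to 3.41. Its highest member, RPSAP19, had 5 and 7 nuclear and 28 and 36 cytoplasmic counts, a log2 difference of 2.95 ± 0.39 (limma adjusted p = 0.0106).

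Among the 11 members named after RPL7, 9 were higher in both cytoplasmic libraries and 1 in both nuclear ones. The 9 include RPL7P21, RPL7P22 and RPL7P57, which resemble RPL7L1. RPL7P9, the highest, had 10 and 11 nuclear and 54 and 40 cytoplasmic counts, a log2 difference of 2.73 ± 0.29 (limma adjusted p = 0.0090). Among the 9 copies of RPS4X, 5 were higher in both cytoplasmic libraries and 1 in both nuclear ones. RPS4XP3, the highest of these, had 5 and 10 nuclear and 35 and 15 cytoplasmic counts, a log2 difference of 2.24 ± 0.55 (limma adjusted p = 0.032). Each of these 3 families thus held copies on both sides, but the nuclear side was 1 copy in each. These copies, RPSAP74, RPL7P4 and RPS4XP9, had no cytoplasmic count and passed the threshold on the mean only through their nuclear counts. Whether copies of a family differ between fractions was therefore not tested.

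Members at the threshold rested on very few reads. RPSAP4 and RPL13P2 each had 0 and 1 nuclear and 4 and 1 cytoplasmic counts, and RPL36AP52 had 1 and 0 against 3 and 2. Their cytoplasmic over nuclear ratio was 7.87 in each, with a 95% exact interval of 0.881 to 372. Fractions of such members were not told apart at this depth. The most similar copies also included RPL21P16, with 9 and 13 nuclear and 51 and 31 cytoplasmic counts, and RPL21P75, with 1 and 5 against 38 and 32.

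The 213 listed copies with a mean above 0 but below 1.7 were all recovered, and their counts were summed. The upper limit on the mean also selects them. A cytoplasmic count adds 0.293 or 0.331 to the mean, and a nuclear count 0.186 or 0.210. The sums were 134 and 116 in nuclear A and B and 196 and 92 in cytoplasmic A and B. After normalization the cytoplasmic sum was 1.78 times the nuclear one, at 176 ± 76.3 against 98.7 ± 1.69 (SD, n = 2 each). The spread came from the cytoplasmic libraries, at 230 in A and 122 in B, both above the nuclear sums of 99.9 and 97.5. Before scaling, the 92 counts of cytoplasmic B were below both nuclear sums, so this order rests on the size factors. Over all 9274 genes in that range the same ratio was 0.707. For the 160 recovered members the ratio of sums was 5.16, at 3078 ± 572 against 596 ± 131 (SD, n = 2 each).

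The lower level in cytoplasmic B recurred among the members. In 68.1% of them cytoplasmic A was above cytoplasmic B after normalization, against 47.4% of all genes, and nuclear A was above nuclear B in 30.6%, against 47.2%. Which property of the libraries goes with this was not tested.

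Other processed pseudogenes leaned to the cytoplasm less than the ribosomal protein copies did in these counts. The other group also takes in genes typed as transcribed processed pseudogenes. The rule for the members leaves that type out, so the groups are not alike in type. Of 642 recovered among 727 with a mean of at least 1.7, 353 (55.0%) were higher in both cytoplasmic libraries and 144 (22.4%) in both nuclear ones. Over all genes these shares were 32.7% and 40.7%. The median log2 difference of these 642 was 1.28, against 2.28 for the members. At an adjusted p of at most 0.01, limma called 26 of the 642 higher in the cytoplasm (background 1.82%) and 6 in the nucleus (background 1.47%). Below a mean of 1.7 the ratio of cytoplasmic to nuclear sums was 1.16 for 1666 other processed pseudogenes. The difference between the groups of pseudogenes was not tested.

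**Figure D5:**
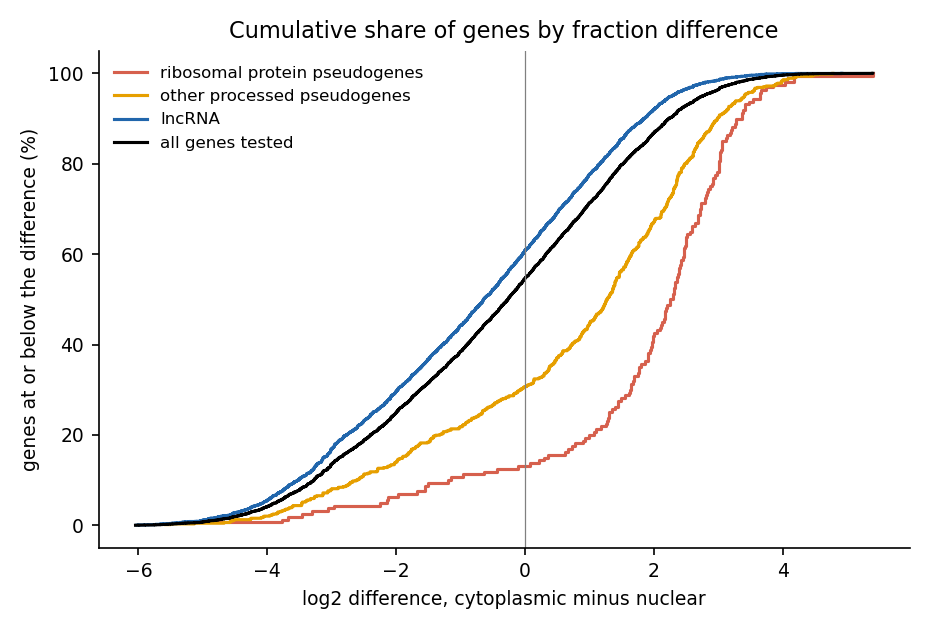
Cumulative share of genes (%) against the log2 difference, cytoplasmic minus nuclear, for 160 ribosomal protein pseudogenes, 642 other processed pseudogenes, 3711 lncRNAs and all 7675 genes with recovered counts. The medians are 2.28, 1.28, -0.64 and -0.26. The other processed pseudogenes include the transcribed type, which the members do not.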

How the data were processed

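RNA of nuclear and cytoplasmic fractions was sequenced in 2 libraries each. The authors aligned reads with STAR to hg38, counted them over exons and introns with featureCounts 2.0.2 (minimum overlap of 20 bases, overlapping stretches removed) and compared fractions with DESeq2. The deposited mean normalized count is a signal averaged over the 4 libraries, and the columns of the authors' comparison (log2 fold change, its error, score and p-values) were not used as values. Only the sign of the deposited log2 fold change was read, for genes with 1 count, to tell which libraries were nuclear.

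Each mean is a sum of 4 whole counts times 4 steps, the inverse of 4 times a size factor. Steps were started from genes with 1 count and refined by least squares on genes of low mean with a single combination. All combinations within 0.5 units of the last printed digit, plus a slack of 2e-11 of the mean, were searched for means up to 200. Each of the 21391 searched genes had a combination. Of 12117 from 1.7 to 200, 7675 (63.3%) had exactly 1 and were used. The share was 100% for means of 1.7 to 10 and 54.8% from 10 to 50. The table does not hold the total depth of a library.

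Counts were divided by size factors, and log2(value + 0.5) was fitted with limma 3.58.1 in R 4.3.3 (lmFit, eBayes with trend, cytoplasmic minus nuclear, all 7675 genes, Benjamini-Hochberg adjustment, threshold 0.01). Differences are on that scale and understate changes of low genes. The table itself holds no count column, and tools that model counts were not run on the recovered counts. Recovery and fit were tested on simulated data. Exact (Clopper-Pearson) 95% intervals and floors of 3 counts over a fraction cover counting error only. Coordinates, exons and local alignments to the canonical parent mRNA came from GENCODE 44 on hg38, a later release than the authors'. Members named by rule were the 8 with the highest mean, the 8 with the largest called cytoplasmic difference (none was called nuclear), the extremes of the 3 largest families, 3 on either side of 1.7, and the 5 highest and lowest in identity. Of all these 1 is not reported here, and other members were named after their values were seen. Alternatives were the threshold, pseudocount, minimum mean, precision weights, scaling, each library left out and chosen combinations. The members, lists and tests were chosen with earlier results of these data known.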

Additional observations from a re-analysis of the deposited data

How the results depend on the processing

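The number of members called depended on the settings. Higher in the cytoplasm were 19 members, 67 at an adjusted p of at most 0.05, 36 with a pseudocount of 1, 46 with a pseudocount of 2, 39 with a minimum mean of 5, 42 with a minimum mean of 10 and 74 with precision weights, and 0 to 0 with each library left out. Over all genes the cytoplasmic calls were 140, 1064, 383, 612, 503 of 4125, 592 of 2160, 976 and 0 in the same settings. Higher in the nucleus were 0, 7, 1, 3, 1, 1 and 4 members in that order, 1 with scaling to the total recovered count, and 0 to 5 with each library left out, where the lone library is assumed to vary like the others. Over all genes the nuclear calls were 113, 1476, 527, 904, 539, 407, 1201 and 252, and 0 to 512 with each library left out. The 19 cytoplasmic calls were kept in each alternative that held all 4 libraries. Choosing the combination whose libraries agreed best for genes with several, an alternative chosen after seeing the data, gave 38 and 3. The causes were not tested. The median log2 difference stayed above 0 and ran from 1.49 with a pseudocount of 2 to 2.79 with a minimum mean of 10. Both cytoplasmic libraries were higher in 128 members, and in 77 of 86 with a minimum mean of 5 and 53 of 57 with a minimum mean of 10. Both nuclear libraries were higher in 14, 4 and 1, fewer members being left, and with the nuclear counts alone giving the minimum mean the counts were 45 and 12 of 63. Scaling to the total recovered count moved the median of all genes from -0.26 to -0.37 and their calls from 140 higher and 113 lower in the cytoplasm to 196 and 252, while 126 and 15 members then separated. None of the 22 members picked by the naming rule and recovered changed direction. Counts were recovered for 154 members with 1 digit fewer. No paired analysis was possible because the recovered libraries carry no replicate number, and tools that model counts were not run. Of the 9 members with means above 100, 7 have no values per fraction.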
